A study of Saccharomyces cerevisiae with 104 samples.

Results

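Methionine and S-adenosylmethionine are imported and made in budding yeast through a small group of genes, of which 6 were followed here across wild type (WT) and 29 histone point mutants. They are the transporter genes MUP1 (YGR055W), MUP3 (YHL036W), MMP1 (YLL061W) and SAM3 (YPL274W) and the synthetase genes SAM1 (YLR180W) and SAM2 (YDR502C). The members were chosen by their identifiers, with their RNA levels in these same libraries already known, so their levels, fold changes and calls below are a description and carry no p-value. All 6 were among the 7122 genes of the count table and all 6 passed the filter on low counts, which left 5822 genes for the fit.

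Mup1 is the high-affinity permease that brings methionine into the cell, and Mup3 is a permease of low affinity for the same amino acid. Mmp1 carries S-methylmethionine and Sam3 carries S-adenosylmethionine across the plasma membrane. Sam1 and Sam2 are closely related S-adenosylmethionine synthetases, which join methionine to ATP to make the methyl donor used for histones, other proteins, RNA, phospholipids and sterols. Lysines 4 and 36 of histone H3 are among the residues that take methyl groups from S-adenosylmethionine in yeast, and the transcription of many sulfur genes in this species runs through the activator Met4.

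QuantSeq, which sequences only 3′ ends of polyadenylated RNA, was run on 90 libraries of the S288C-based strain MSY196. The H3 mutants were H3T3A, H3T3D, H3K4Q, H3K4R, H3K18A, H3S31D, H3K36A, H3K36Q, H3K36R, H3K37Q, H3K37R, H3R40K, H3S86A, H3S86D, H3K115A, H3K115Q, H3K115R, H3K121A, H3K121Q, H3K121R, H3K122A and H3K122Q, and the H4 mutants were H4K44Q, H4K44R, H4R55A, H4Y88A, H4Y88F, H4K91Q and H4K91R; H3K115Q, for example, carries glutamine in place of the lysine of H3 that its name numbers. H3T3A had 2 libraries, as did H3T3D, H4Y88A and WT had 4 each and every remaining mutant had 3. The labels do not give the growth medium of the RNA cultures, so their methionine supply is not known here, nor do they say how the mutant histone genes are carried or whether libraries of a genotype came from separate cultures or clones. If they did not, the spread between libraries is partly technical.

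Gene counts summed to between 768398 and 3143681 per library, with a median of 1507838.5, apart from H3K4R S55 with 24010. That library held 1 count or fewer of MUP1, MUP3, SAM1 and SAM2, and levels of H3K4R are given from its other libraries, S56 and S97. A library is named by its genotype and the sample number in its column. These numbers fall into 3 runs, defined after the data were seen: the first set of 44 libraries with 3 of WT (S46, S81 and S82), the second set of 22 with none of WT, and the third set of 24 with 1 of WT (S133). H3T3A, H3T3D, H3K18A, H3S31D, H3K37Q, H3K37R, H3R40K and H4R55A lie wholly in the third set, so their genotype and the set can be told apart only through WT S133 and H4Y88A S132. A point mutation in a histone gene leaves no mark in counts per gene, so the genotype labels could not be checked.

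In the RefSeq annotation of the R64 assembly, which is sacCer3, MUP1 spans chromosome VII positions 599417 to 601141 and MUP3 spans VIII positions 26241 to 27881. MMP1 spans XII positions 17956 to 19707 and starts 342 bases beyond MHT1. MHT1 encodes the homocysteine S-methyltransferase that uses S-methylmethionine. SAM3 spans XVI positions 22938 to 24701, and SAM4, whose product transfers a methyl group from S-adenosylmethionine to homocysteine, lies 385 bases to its right. SAM1 spans XII positions 515262 to 516410 and SAM2 spans IV positions 1453310 to 1454464. Multiply placed reads were left out of the gene counts and outnumbered them by 1.26 to 8.17 times. SAM1 and SAM2 are closely related paralogs and MMP1 and SAM3 are related to each other. Reads that fit both genes of a pair would be left out of both counts. How far this lowered their counts, and how other reads were divided within a pair, is uncertain. The strand setting of the counting is not stated.

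Levels are in CPM, counts scaled to a common library total after TMM correction (a trimmed mean of M values), given as mean ± SD over the libraries of a genotype. They are shares of the counted RNA of a whole culture, so fewer expressing cells and less RNA per cell cannot be told apart. Fold changes are log2 values of a mutant over WT ± standard error from one edgeR quasi-likelihood fit to all libraries. A gene was called where its Benjamini-Hochberg adjusted p, over all 5822 genes of a comparison, was under 0.05. Among the 174 values of the 6 genes in 29 mutants, 8 were called, all of them higher than WT; with another scaling (RLE) 8 of 9 calls were higher. Over all genes and mutants 1.40% of values were called, 0.856% higher and 0.548% lower, and since the genes were chosen with these comparisons known nothing is read from the difference in share. The calls were MUP1 in H3K122A, H3S86A, H3K115Q and H3K122Q, MUP3 in H3S86A, H3K115Q and H3K121R, and SAM2 in H3K121Q.

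MUP1, the high-affinity methionine permease gene, was highest in mutants of H3K115, H3K122 and H3S86. H3K122A libraries held 550.3, 567.4 and 218.8 CPM, against 101.3, 154.8, 130.96 and 139.9 CPM in WT. All 3 libraries of the mutant were above all 4 of WT, and the fold change was 1.75 ± 0.28 on the log2 scale, a 3.37-fold difference. In that comparison 0.447% of all genes were called higher. The third value, from S99 of the second set, lay far below those of the first set. It was the highest MUP1 level of the 22 libraries of that set, but only just above H3K36R S95 at 213.6 CPM and H3K122Q S100 at 207.6 CPM. MUP1 was not called in H3K36R, and the second set holds no WT library to compare with. The call held without any single library of H3K122A or WT.

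MUP1 in H3S86A reached 373.1, 500.4 and 168.3 CPM, and its fold change over WT was 1.40 ± 0.28, with 0.155% of all genes called higher in that mutant. The library of the second set, S112, lay far below both first-set values and ranked 12 of 22 in its set. In H3K115Q, MUP1 stood at 383.5, 390.4 and 189.5 CPM with a fold change of 1.28 ± 0.28, where 0.103% of all genes were called higher. In H3K122Q it stood at 287.8, 369.3 and 207.6 CPM with a fold change of 1.13 ± 0.28, where 0.240% were called higher. In each of these 3 mutants every library was above every WT library, and the lowest value was again that of the second set. These 3 calls rested on single libraries. H3S86A was no longer called without S85 (1.35) or S86 (1.04), H3K115Q without S67 (1.13), S68 (1.12), WT S133 (1.31), WT S46 (1.18) or WT S82 (1.28), and H3K122Q without S61 (1.13), S62 (0.90), WT S133 (1.16), WT S46 (1.01) or WT S82 (1.12), where the value in brackets is the log2 fold change without that library.

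Other substitutions of the same residues gave smaller MUP1 values that were not called. MUP1 averaged 194.7 ± 39.1 CPM in H3K115A and 139.9 ± 28.7 CPM in H3K115R, against 131.7 ± 22.6 CPM in WT. At H3K121 the averages were 198.4 ± 79.1 CPM in H3K121A, 188.8 ± 13.9 CPM in H3K121Q and 135.8 ± 14.9 CPM in H3K121R. H3S86D averaged 184.6 ± 30.1 CPM. Every library of H3K115A and of H3K121Q lay above WT, while those of H3K115R, H3K121A, H3K121R and H3S86D overlapped WT.

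At the N-terminal tail of H3, MUP1 averaged 110.4 ± 0.692 CPM in H3T3A, 139.1 ± 3.96 CPM in H3T3D, 121.98 ± 46 CPM in H3K4Q, 163.4 ± 4.98 CPM in H3K18A and 155.4 ± 7.0 CPM in H3S31D. H3K4R held 81 and 154.5 CPM in S56 and S97. Around the point where the tail leaves the nucleosome, the averages were 166.2 ± 28.9 CPM in H3K36A, 169.1 ± 7.71 CPM in H3K36Q, 183.5 ± 32 CPM in H3K36R, 150.2 ± 20.4 CPM in H3K37Q, 166.4 ± 21.8 CPM in H3K37R and 99.9 ± 46.7 CPM in H3R40K. H3R40K had the lowest mean of all genotypes, but with libraries at 103.3, 144.8 and 51.5 CPM it overlapped WT and was not called. H3K18A and H3K36Q lay above WT in every library by a small margin.

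In the H4 mutants, MUP1 averaged 176.1 ± 28 CPM in H4K44Q, 152.9 ± 18.6 CPM in H4K44R, 129.3 ± 3.56 CPM in H4R55A, 161.6 ± 50.1 CPM in H4Y88A, 191.2 ± 31.4 CPM in H4Y88F, 167.2 ± 37.2 CPM in H4K91Q and 181.2 ± 44.4 CPM in H4K91R. Of these, H4Y88F lay above WT in every library, at 168.8, 227.2 and 177.7 CPM. Over all 29 mutants the MUP1 fold change was above 0 in 24 and below 0 in 5, and in 9 mutants every library was above every WT library. Such a separation from WT was found for 5.29% of all values upwards and 4.58% downwards. WT itself ranked 25 of the 30 genotypes by mean level.

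MUP3, the low-affinity methionine permease gene, reached its highest levels in H3S86A, at 104.8, 84.2 and 38.8 CPM, against 23.8, 11.1, 10.5 and 16 CPM in WT. The 2 values of the first set were higher than that of the second, and all 3 were above WT. The fold change was 2.34 ± 0.47. In H3K115Q, MUP3 stood at 59.4, 110.1 and 37.3 CPM, a fold change of 2.16 ± 0.48, again with every library above WT. In H3K121R it stood at 39.9, 84.2 and 46.8 CPM, a fold change of 1.91 ± 0.48, in a comparison where 3.83% of all genes were called higher. The H3S86A call was lost without S85 (2.04), S86 (2.27), WT S81 (2.22) or WT S82 (2.20), and the H3K115Q call without S67 (2.26), S68 (1.67), WT S133 (2.19), WT S81 (2.04) or WT S82 (2.02). The H3K121R call was lost only without its own S78 (1.52).

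Further mutants had MUP3 levels of the same size without a call. The libraries of H3K121A held 39.3, 111.6 and 41.3 CPM, a fold change of 2.05 ± 0.48, and those of H4Y88F held 31.6, 105.6 and 41.1 CPM, a fold change of 1.95 ± 0.48. In both, 1 library of the first set stood far above the other 2. H3K18A, by contrast, was even at 56.3, 61.1 and 51 CPM, a fold change of 1.89 ± 0.48. H3K121Q, at 47.5, 63.4 and 41.5 CPM and 1.75 ± 0.49, was the MUP3 value just outside the threshold, and H3K115Q the one just inside it. In all 4 mutants every library was above WT, and different mutants reach the threshold at different fold changes because the adjustment runs over each comparison separately. Without 1 library some of them crossed it: H3K121A without S108 (2.29), H4Y88F without S107 (2.16) and H3K121Q without S110 (1.88) or WT S46 (2.01). H3K121Q was also called with the set of sample numbers as a covariate, at 1.79, and with DESeq2, at 1.75, H4Y88F with DESeq2, at 1.94, and H3K18A in a fit to H3K18A and WT alone, at 1.92.

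MUP3 also lay above WT in every library of H3K122A, which averaged 46.3 ± 13.6 CPM, of H3K37R at 45.3 ± 7.17 CPM, of H3K37Q at 31.3 ± 3.57 CPM and of H3K4Q at 37.1 ± 11.4 CPM, against 15.4 ± 6.13 CPM in WT. None of these was called. Overlapping WT, MUP3 averaged 31.2 ± 14.5 CPM in H3K115A, 27 ± 15.2 CPM in H3K115R, 28.5 ± 10.6 CPM in H3K122Q and 27.3 ± 17.2 CPM in H3S86D. At H3K36 it averaged 19.2 ± 19.3 CPM in H3K36A, 22.6 ± 16.3 CPM in H3K36Q and 17.9 ± 10.7 CPM in H3K36R, where the library of the second set was the highest of its genotype in each case, for instance 9.02, 7.19 and 41.5 CPM in H3K36A.

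At the low end, MUP3 averaged 11.9 ± 7.90 CPM in H3T3A, 20.8 ± 2.31 CPM in H3T3D, 14.5 ± 4.80 CPM in H3S31D and 13.7 ± 0.487 CPM in H3R40K, and H3K4R held 10.6 and 29.96 CPM. In the H4 mutants other than H4Y88F it averaged 34.2 ± 15.4 CPM in H4R55A, 19.4 ± 5.10 CPM in H4K44Q, 26.7 ± 5.84 CPM in H4K44R, 23.4 ± 6.23 CPM in H4Y88A, 20.1 ± 12.2 CPM in H4K91Q and 23.2 ± 16 CPM in H4K91R. Of the 29 fold changes 26 were above 0 and 3 below, and WT ranked 27 of the 30 genotypes by mean level once S55 was left out. In 11 mutants every library was above every WT library.

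MMP1, the S-methylmethionine permease gene, was not called in any mutant. Its highest genotype was H3S86A at 25.8, 43 and 16.4 CPM, a fold change of 1.39 ± 0.36, against 17, 11.1, 5.52 and 10.8 CPM in WT. The second-set library, S112, fell within the WT range, and without it the change was called at 1.64, as it was at 1.63 without WT S46. H3K115Q, at 29.7, 22.9 and 22.8 CPM and 1.20 ± 0.38, was the 1 mutant with every library above WT. H3K122A followed at 29.6, 29.3 and 14.2 CPM and 1.15 ± 0.37, with its second-set library inside the WT range.

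MMP1 averaged 22.1 ± 7.70 CPM in H3K121A, 20.1 ± 3.48 CPM in H3K37R, 18.5 ± 3.28 CPM in H3K18A, 17.3 ± 7.51 CPM in H3K122Q and 15.4 ± 6.14 CPM in H4Y88A, against 11.1 ± 4.69 CPM in WT. Close to WT, it averaged 14 ± 5.11 CPM in H3S86D, 14 ± 2.63 CPM in H3K121Q, 10.1 ± 0.198 CPM in H3K121R, 11.7 ± 1.21 CPM in H3K115A and 11.1 ± 7.56 CPM in H3K115R. At the tail exit it averaged 10.9 ± 3.82 CPM in H3K36A, 12.5 ± 5.86 CPM in H3K36Q, 13.1 ± 3.03 CPM in H3K36R and 9.44 ± 2.46 CPM in H3K37Q. All of these overlapped WT.

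In the H4 mutants MMP1 averaged 9.96 ± 3.70 CPM in H4K44Q, 10.2 ± 2.39 CPM in H4K44R, 8.81 ± 5.41 CPM in H4R55A, 12.2 ± 3.59 CPM in H4Y88F, 12.4 ± 2.93 CPM in H4K91Q and 10.3 ± 4.47 CPM in H4K91R. The lowest means were 6.68 ± 3.56 CPM in H3T3A, 7.64 ± 3.45 CPM in H3S31D, 8.16 ± 0.924 CPM in H3R40K, 8.80 ± 1.14 CPM in H3T3D and 8.98 ± 4.43 CPM in H3K4Q, and H3K4R held 12.3 and 10.2 CPM. These low values also overlapped WT. These MMP1 levels rest on 5 to 69 counts per library outside S55.

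SAM3, the S-adenosylmethionine permease gene, was likewise called in no mutant. H3S86A held 368.8, 378.7 and 159.7 CPM, a fold change of 0.99 ± 0.26, and H3K122A held 307.1, 320.2 and 149.0 CPM, a fold change of 0.76 ± 0.26, against 189.6, 165.4, 165.1 and 89.6 CPM in WT. In both mutants the first-set libraries were above every WT library and the second-set library was within the WT range. Without that library, S112, the H3S86A change was called at 1.30. WT S133, the only WT library of the third set, was the lowest of the 4 WT values by a wide margin.

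H3S31D and H3T3D were the mutants with every SAM3 library above WT, at 255.1, 198.4 and 249.6 CPM for H3S31D and 206.8 and 217.9 CPM for H3T3D, with fold changes of 0.62 ± 0.26 in H3S31D and 0.48 ± 0.29 in H3T3D. Both lie wholly in the third set. Against WT S133 alone, in a fit to the third set added after the data were seen, the changes were 1.40 ± 0.31 in H3S31D and 1.24 ± 0.31 in H3T3D and were called, as was 1.05 in H3K18A, on 1 WT library that is assumed to vary like the other genotypes. In that fit SAM3 was above WT S133 in all 9 mutants with libraries in the third set, by 0.35 to 1.40, so a higher level than WT S133 was shared by the whole set.

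SAM3 averaged 227.2 ± 62.3 CPM in H3K115Q, 224.7 ± 63.5 CPM in H3K121A, 209.7 ± 66 CPM in H3K122Q, 194.2 ± 38.6 CPM in H3K121Q and 183.8 ± 25.7 CPM in H3K18A, against 152.4 ± 43.4 CPM in WT. Nearer to WT were 180.3 ± 31.8 CPM in H3K37R, 169.9 ± 19.9 CPM in H3K37Q, 177.2 ± 31.8 CPM in H3S86D, 173.3 ± 22.6 CPM in H3K115A, 159.2 ± 47.7 CPM in H3K36R and 155.2 ± 48.2 CPM in H3R40K. Below the WT mean were 143.4 ± 26.2 CPM in H3K36A, 141.8 ± 46.1 CPM in H3K36Q, 138.8 ± 24 CPM in H3T3A, 135.8 ± 26.6 CPM in H3K115R, 127.8 ± 33.1 CPM in H3K4Q and 113.6 ± 31.2 CPM in H3K121R, which was the lowest. H3K4R held 89.2 and 188.4 CPM.

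In the H4 mutants SAM3 averaged 176.3 ± 16.2 CPM in H4K44Q, 152.2 ± 14.2 CPM in H4K44R, 121.7 ± 21.3 CPM in H4R55A, 134.8 ± 18.7 CPM in H4Y88A, 140.8 ± 20.1 CPM in H4Y88F, 149.2 ± 29.1 CPM in H4K91Q and 160.5 ± 33.9 CPM in H4K91R. All of them overlapped WT. The largest mean, in H3S86A, was 2.66 times the smallest, in H3K121R, the narrowest span of the 6 genes.

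**Figure D1:**
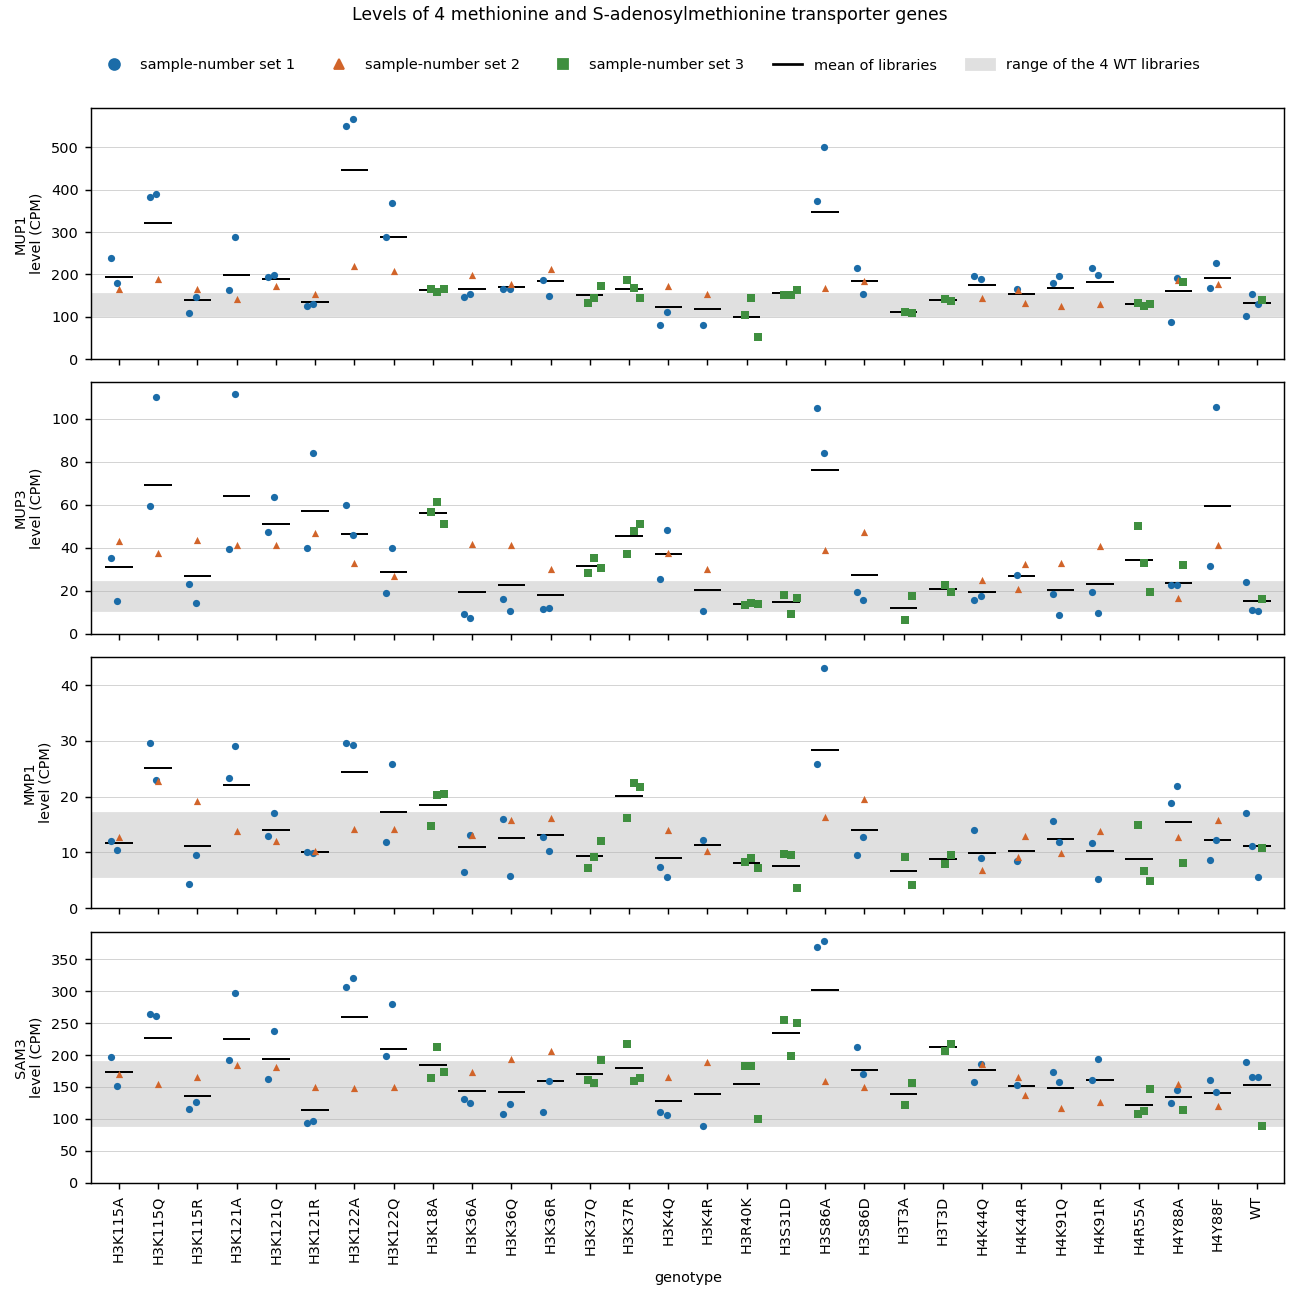
RNA level in CPM after TMM scaling (vertical axes) of MUP1, MUP3, MMP1 and SAM3 in each genotype (horizontal axis, WT at the right), with 1 point per library shaped by its run of sample numbers, a bar at the mean and a grey band over the 4 WT libraries; H3K4R S55 is left out. For MUP1, the libraries of H3K122A lie at 218.8 to 567.4 CPM, above the WT range of 101.3 to 154.8 CPM, and in H3K122A, H3S86A, H3K115Q and H3K122Q the second-set library is the lowest.

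SAM1, the first of the synthetase genes, was called in no mutant and lay on both sides of WT. It was highest in H3K121Q at 147.4, 192.5 and 112.2 CPM, a fold change of 0.84 ± 0.37, with every library above the WT values of 87, 89, 55.7 and 105.6 CPM. It lay below every WT library in 3 mutants, all of the third set. H3T3D held 36.5 and 34.8 CPM, a fold change of -1.24 ± 0.46.

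SAM1 stood at 46.7, 53.2 and 15.6 CPM in H3R40K, a fold change of -1.12 ± 0.38 whose adjusted p was just above the threshold of 0.05. Without H3R40K S137 it was called at -1.44, and without WT S82 at -1.28. In H3S31D it stood at 43.8, 39.1 and 43.1 CPM, a fold change of -1.01 ± 0.39. H4R55A, also of the third set, held 62.2, 37.1 and 29.7 CPM and overlapped WT with 1 library. WT S133, the WT library of the same set, had the highest SAM1 level of WT, so the differences within the third set were larger, at -1.41 ± 0.44 for H3R40K, -1.32 ± 0.46 for H3S31D and -1.57 ± 0.50 for H3T3D. Of these, H3R40K was called, and SAM1 was below WT S133 in all 9 mutants with libraries in that set, by log2 values from -1.57 to -0.15.

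SAM1 averaged 140.8 ± 58.4 CPM in H3S86A, 135.3 ± 96.7 CPM in H3K121A, 134.2 ± 45.1 CPM in H3K115Q and 119.3 ± 32 CPM in H3K122A, against 84.3 ± 20.8 CPM in WT. In each of these the second-set library was the lowest, and it lay within the WT range in H3S86A, H3K115Q and H3K122A and below it in H3K121A. Next came 108.7 ± 29.4 CPM in H3S86D, 107.8 ± 30.9 CPM in H3K121R, 94.4 ± 22.2 CPM in H3K18A, 90.5 ± 42.3 CPM in H3K122Q and 90.6 ± 36.3 CPM in H3K4Q.

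Close to WT, SAM1 averaged 87 ± 24.6 CPM in H3K37Q, 86.1 ± 31.5 CPM in H3K37R, 77.5 ± 6.63 CPM in H3K36R and 74.9 ± 7.55 CPM in H3K115R, and H3K4R held 58.1 and 91.5 CPM. Lower means were 66.7 ± 21.5 CPM in H3K115A, 50.1 ± 8.17 CPM in H3K36A, 54.8 ± 10.9 CPM in H3K36Q and 54.9 ± 27.2 CPM in H3T3A. All of these genotypes overlapped WT.

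In the H4 mutants SAM1 averaged 69.8 ± 35.6 CPM in H4K44Q, 64.3 ± 12.2 CPM in H4K44R, 43 ± 17 CPM in H4R55A, 109.96 ± 41.3 CPM in H4Y88A, 94.3 ± 20.9 CPM in H4Y88F, 78 ± 41.8 CPM in H4K91Q and 98 ± 8.99 CPM in H4K91R. Of the 29 SAM1 fold changes, 15 were above 0 and 14 below.

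SAM2, the second synthetase gene, was counted thinly, with at most 35 counts in a library. It was highest in H3K121Q, at 33.6, 27.1 and 7.08 CPM from 34, 35 and 7 counts in S79, S80 and S110, against 4.76, 9.61, 3.51 and 7.04 CPM in WT from 7, 19, 7 and 15 counts. The fold change of 1.84 ± 0.47 was called, in a comparison where 0.739% of all genes were called higher. The first-set libraries stood far above WT, while the second-set library lay within the WT range. The call was lost without S79 (1.47), S80 (1.69), WT S133 (1.90) or WT S82 (1.64).

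SAM2 lay below every WT library in H3R40K, at 1.65, 3.22 and 3.2 CPM, and in H3S31D, at 2.22, 3.01 and 2.92 CPM. The fold changes were -1.18 ± 0.54 in H3R40K and -1.18 ± 0.61 in H3S31D, neither of them called. H4R55A was similarly low at 4.50, 2.03 and 1.82 CPM, a fold change of -1.21 ± 0.60, with 1 library inside the WT range.

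SAM2 averaged 12.7 ± 7.61 CPM in H4K44Q, 12.3 ± 6.40 CPM in H3S86A and 11.1 ± 6.85 CPM in H3K121A, each with 1 first-set library at 19.0 CPM or above, against 6.23 ± 2.69 CPM in WT. It averaged 9.29 ± 2.19 CPM in H4Y88A, 9.24 ± 7.88 CPM in H3K4Q, 8.84 ± 3.58 CPM in H3K122A, 8.67 ± 4.71 CPM in H3K36R, 8.33 ± 2.07 CPM in H3K115Q, 8.16 ± 2.04 CPM in H3K18A and 7.98 ± 4.81 CPM in H3K122Q. All of these overlapped WT.

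The remaining SAM2 means were 7.81 ± 3.76 CPM in H4Y88F, 7.72 ± 4.56 CPM in H4K91Q, 7.79 ± 7.06 CPM in H4K91R, 6.87 ± 4.28 CPM in H3K36Q, 6.40 ± 1.99 CPM in H3T3D, 6.23 ± 1.49 CPM in H3K115A, 5.67 ± 0.413 CPM in H3K37R and 5.25 ± 1.5 CPM in H3K121R. At the low end were 4.73 ± 1.71 CPM in H3K36A, 4.38 ± 2.08 CPM in H3K37Q, 4.64 ± 1.68 CPM in H3T3A, 4.13 ± 1.26 CPM in H4K44R, 4.0 ± 1.03 CPM in H3K115R and 3.50 ± 3.37 CPM in H3S86D, and H3K4R held 7.36 and 4.73 CPM. These too overlapped WT.

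**Figure D2:**
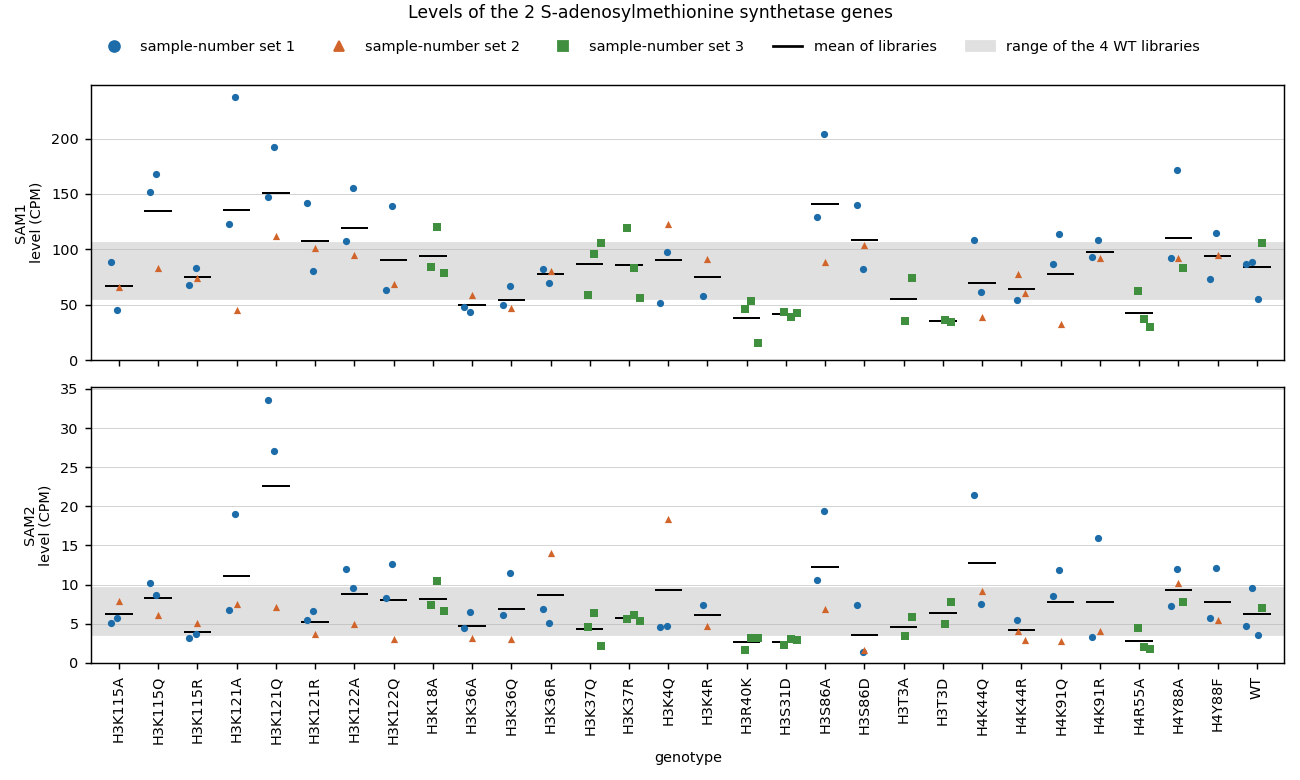
RNA level in CPM after TMM scaling (vertical axes) of SAM1 and SAM2 in each genotype (horizontal axis, WT at the right), with 1 point per library shaped by its run of sample numbers, a bar at the mean and a grey band over the 4 WT libraries; H3K4R S55 is left out. SAM1 in H3R40K, H3S31D and H3T3D lies at 15.6 to 53.2 CPM, below the WT range of 55.7 to 105.6 CPM, and SAM2 stands out in 2 libraries of H3K121Q at 27.1 and 33.6 CPM.

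Ordered by mean level, none of the 29 pairs of neighbouring genotypes was apart, that is without overlap of its libraries, for any of the 6 genes. Neighbours in such an order have the closest means, so overlap was likely from the start for any gene. How often neighbours are apart over all genes was not computed. The order is used as a ranking of means only. In every one of the 6 genes, either H3S86A, H3K122A or H3K121Q held the highest mean, once H3K4R S55 was left out. With S55 included, H3K4R would hold the highest MMP1 mean on 2 counts of that library.

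Read by mutant, all 6 fold changes were above 0 in H3S86A, H3K122A, H3K115Q, H3K121A, H3K121Q, H3K122Q and H3K18A. Their medians over the 6 genes were 1.19 in H3S86A, 0.96 in H3K122A, 0.93 in H3K115Q, 0.70 in H3K121A, 0.68 in H3K121Q, 0.57 in H3K122Q and 0.34 in H3K18A, where the median over all tested genes lay between -0.03 and 0.01. All 6 were below 0 in H3T3A, with a median of -0.44, against -0.03 over all genes. In H3R40K 5 of 6 were below 0, with a median of -0.40, as were 5 of 6 in H4R55A, with a median of -0.34. In H3K36R, H3K37R, H3S86D, H4K91R, H4Y88A and H4Y88F 5 of 6 were above 0, with medians from 0.22 in H4Y88F to 0.44 in H4Y88A. The same WT libraries enter each of these comparisons.

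**Figure D3:**
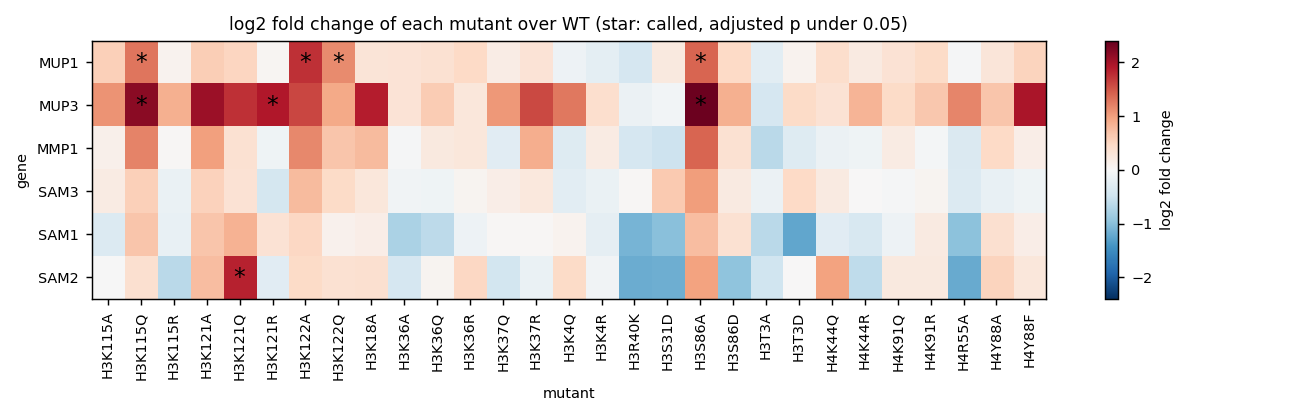
Heat map of the log2 fold change of each mutant over WT (columns) for the 6 genes (rows), red for higher and blue for lower in the mutant, with a star on called values. The 8 stars are all on higher values and fall on 4 mutants for MUP1, 3 for MUP3 and 1 for SAM2; the blue cells of SAM1 and SAM2 in H3R40K, H3S31D and H4R55A reach -1.21 without a call.

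Averaged over the 29 mutants, none of the 6 genes was called against WT, in a comparison where 0.137% of all genes were. The averaged fold change was 0.99 ± 0.36 for MUP3, 0.39 ± 0.20 for MUP1, 0.21 ± 0.27 for MMP1, 0.15 ± 0.18 for SAM3, -0.09 ± 0.24 for SAM1 and 0.03 ± 0.37 for SAM2. DESeq2 also called none of the 6. WT S81 and WT S82 held the lowest MUP3 levels of the 4 WT libraries, and the same WT libraries enter every mutant's fold change.

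Comparing substitutions of 1 residue with each other leaves the WT libraries out. Over the 6 genes in 17 such pairs, 2 values were called, beside 0.694% of all values. SAM3 was higher in H3K121A, at 192.2, 297.8 and 183.9 CPM, against 93.8, 97.4 and 149.6 CPM in H3K121R, a log2 difference of 0.98 ± 0.29, in a comparison with 0.155% of all genes called higher. SAM2 was higher in H3K121Q, at 33.6, 27.1 and 7.08 CPM, against 5.47, 6.63 and 3.65 CPM in H3K121R, a difference of 2.11 ± 0.54, beside 0.137% called higher. The libraries did not overlap in either pair. They did not overlap for MMP1 and SAM2 in H3K121A over H3K121R either, which were not called. How often libraries are apart over all genes was not computed for pairs of substitutions, here or below. In fits to only the 2 genotypes compared neither difference was called, at 0.97 for SAM3 and without a value for SAM2. Without the filter on low counts the SAM3 difference was not called either. The SAM3 difference was no longer called without H3K121A S75 (1.08) or S76 (0.74) or H3K121R S77 (0.86) or S78 (0.88), nor the SAM2 difference without H3K121Q S79 (1.74) or S80 (1.95) or H3K121R S77 (2.14) or S109 (1.89).

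At H3K115, MUP1 in H3K115Q exceeded H3K115R by 1.20 ± 0.31 without overlap of libraries, at 383.5, 390.4 and 189.5 CPM in H3K115Q against 108.7, 145.8 and 165.3 CPM in H3K115R, but was not called. MMP1 differed there by 1.17 ± 0.42 between H3K115Q and H3K115R and by -1.08 ± 0.41 for H3K115A over H3K115Q. At H3K37, MMP1 was at 7.14, 9.14 and 12.0 CPM in H3K37Q against 16.1, 22.4 and 21.8 CPM in H3K37R, a difference of -1.15 ± 0.43 without overlap. SAM2 was at 21.5, 7.54 and 9.15 CPM in H4K44Q against 5.44, 4.01 and 2.94 CPM in H4K44R, a difference of 1.57 ± 0.56. None of these passed the threshold, and a value that misses it does not show that the substitutions act alike.

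At H3K122, MUP1 in H3K122A over H3K122Q differed by 0.63 ± 0.30, and at H3S86 MUP1 in H3S86A over H3S86D differed by 0.92 ± 0.30 and MUP3 by 1.49 ± 0.49. At H3K121, MUP3 in H3K121A over H3K121R differed by 0.13 ± 0.48, and both stood above WT in every library, while MUP1 over WT was 0.58 ± 0.29 in H3K121A and 0.04 ± 0.29 in H3K121R. The libraries of these pairs overlapped.

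Across the 30 genotype means, and without H3K4R S55, Pearson's r between log2 levels was 0.79 for MUP1 and MMP1, 0.71 for MUP1 and SAM3, 0.70 for MUP3 and MMP1, 0.59 for MUP1 and SAM1 and 0.53 for MUP1 and MUP3. For SAM1 and SAM2 it was 0.64, and for SAM3 and SAM1 it was 0.28, the lowest of the 15 pairs. These are descriptions over genotypes whose libraries share sets and scaling. Over all genes of at least 10 CPM on average, the 95th percentile of r was 0.75 for SAM1, 0.59 for MUP3, 0.51 for SAM2 and 0.44 for MUP1. The r of SAM1 with MUP1 and with SAM2 lay under the percentile of SAM1, and that of MUP1 and MUP3 under the percentile of MUP3. Within sets, r for MUP1 and SAM3 was 0.91 over 22 genotypes of the first set, 0.29 over 21 of the second and 0.14 over 10 of the third. For MUP1 and MMP1 it was 0.73, 0.52 and 0.47 in the same sets, and for MUP1 and MUP3 it was 0.55, -0.09 and 0.66.

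Libraries of 1 genotype also differed from each other in a shared way. Over 89 libraries, the deviations from the genotype mean had r of 0.72 for MUP1 and SAM3, 0.67 for MUP1 and SAM1, 0.53 for SAM1 and SAM2, 0.32 for MUP1 and MMP1 and 0.29 for MUP1 and MUP3. MUP3 and SAM2 had 0.01. Libraries in which MUP1 was high for their genotype thus tended to be high for SAM3 and SAM1 as well. Libraries of a genotype carry the same histone mutation, and what separates them was not tested. How far other genes share such deviations was not computed.

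**Figure D4:**
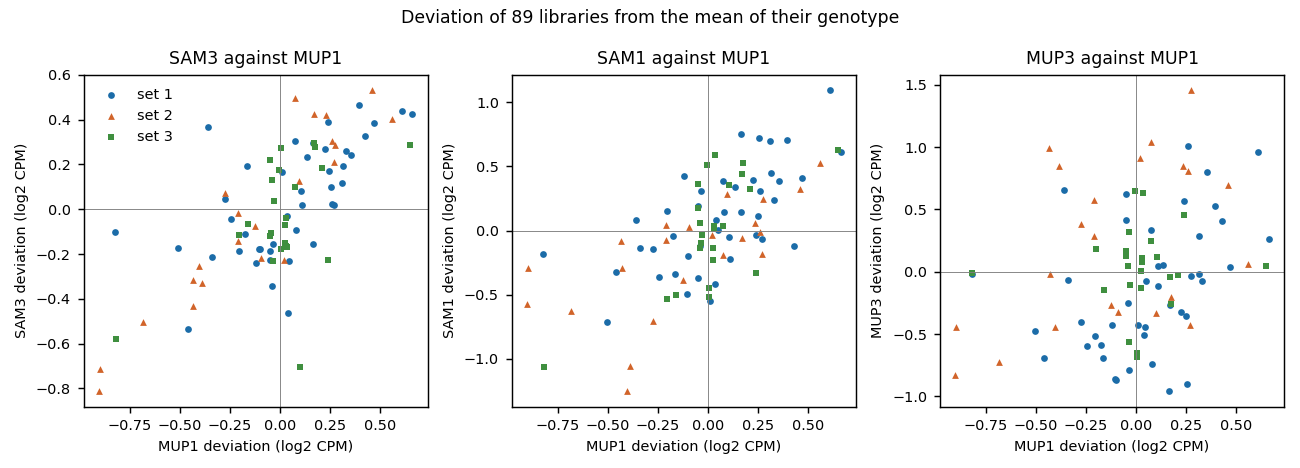
Deviation of each of 89 libraries from the mean of its genotype, in log2 CPM, for SAM3 (left), SAM1 (middle) and MUP3 (right) on the vertical axes against MUP1 on the horizontal axes, with points shaped by the run of sample numbers and H3K4R S55 left out. SAM3 and SAM1 rise with MUP1, with r of 0.72 and 0.67, and MUP3 does so less, with r of 0.29.

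The set of sample numbers moved with some of these levels. This was compared in the 21 genotypes with libraries in the first and the second set. H3K4R entered here with its shallow first-set library S55, which held 0 counts of MUP3 and SAM2. The second-set MUP1 level was below the first-set mean in 12 and above it in 9, with a median difference of -0.17 on the log2 scale. For SAM2 it was below in 15 of 21, with a median of -0.54, and for SAM1 in 14 of 21, with a median of -0.12, while for MUP3 it was below in 10 of 21, with a median of 0.09. Within first-set libraries alone, a fit added after the data were seen, MUP1 in H3K122A differed from WT by 2.10 ± 0.26. MUP3 in H3S86A differed by 2.65 ± 0.45 and SAM2 in H3K121Q by 2.29 ± 0.49. Each was larger than over all libraries, but the second-set library was the lowest of its mutant for that gene. Leaving that library out raises the mutant mean, so the increase is no separate evidence. What the sets stand for is not given, and their part in the levels was not tested further.

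The genes with the most similar pattern were taken as the 3 with the highest r over the 30 genotype means among 4776 genes of at least 10 CPM on average (4777 for SAM2, itself below that level). For MUP1 they were MMP1 with r of 0.79, the amino acid permease gene BAP3 with 0.78 and OPT1, which encodes an oligopeptide and glutathione transporter, with 0.77. For MMP1 they were OPT1 with 0.80, MUP1 with 0.79 and CYS3, a gene of cysteine synthesis, with 0.75. For SAM3 they were MUP1 with 0.71, MET17 with 0.69 and the tubulin folding factor gene ALF1 with 0.61. The 95th percentile of r over all compared genes was 0.44 for MUP1, 0.56 for MMP1 and 0.28 for SAM3.

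MUP3 was most similar to genes of purine synthesis, ADE2 with r of 0.84, ADE4 with 0.81 and ADE57, listed also as ADE5,7, with 0.80, where the 95th percentile was 0.59. SAM1 was most similar to the ribosomal protein gene RPL13A and the pyruvate kinase gene CDC19, both with 0.92, and to ECM14 with 0.91. Its 95th percentile was 0.75, so many genes track the SAM1 pattern over genotypes. SAM2 was most similar to the lipid transfer protein gene SEC14 with 0.77, the citrate synthase gene CIT2 with 0.75 and the oxidoreductase gene OYE2 with 0.72, with a 95th percentile of 0.51.

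The other genes of the pathway were followed in 5 lists of 48 genes, of which 44 were tested. SUL1, MET13, MET28 and AGP3 fell under the filter. These lists too were chosen with earlier results of these data known. Their calls and adjusted p-values below are therefore a description and not independent tests. Of 1276 values in 29 mutants 25 were called, 10 higher and 15 lower, in 15 genes, which is 1.96% beside 1.40% over all genes. Sulfate assimilation, which reduces sulfate to sulfide and joins it to a carbon chain, had 1 higher and 5 lower calls. The methyl cycle and transsulfuration had 2 higher and 5 lower, the regulators 1 higher and 0 lower, other transporters 6 higher and 1 lower, and users of S-adenosylmethionine with the salvage of methionine 0 higher and 4 lower.

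AGP1, a broad-specificity amino acid permease gene that also carries methionine, was higher in 6 mutants. The changes were 1.25 ± 0.22 (adjusted p = 0.000849) in H3K4Q, 1.22 ± 0.24 (adjusted p = 0.00893) in H3K4R and 1.02 ± 0.22 (adjusted p = 0.0149) in H3K115Q, by edgeR over all genes of each comparison. They were 0.87 ± 0.24 (adjusted p = 0.0191) in H3T3D, 0.86 ± 0.22 (adjusted p = 0.0339) in H3K122A and 0.92 ± 0.22 (adjusted p = 0.0394) in H3S86A. AGP1 averaged 214.7 ± 46.1 CPM in H3K4Q and 170.8 ± 48.9 CPM in H3S86A, against 90.8 ± 14.01 CPM in WT. H3K115Q, H3K122A and H3S86A, in which MUP1 was also called, are 3 of these 6 mutants, and they share the WT libraries. The H3K4Q call held without any single library, whereas the other 5 did not. Those of H3K115Q, H3K122A and H3S86A were lost without either first-set library of the mutant or without WT S133, WT S81 or WT S82, at 0.76 to 1.01. That of H3T3D was lost without S134, S135 or WT S81, at 0.78 to 0.94, and that of H3K4R without S97 or WT S81, at 1.14 and 1.16. With the set as a covariate the calls were lost in H3S86A, at 0.88, and in H3T3D, at 0.96, and with RLE scaling the call was lost in H3S86A, at 0.88. With the average of the 28 other mutants standing in for WT 5 of the 6 calls were lost, all but H3K4Q, and all 6 were lost in fits to only the 2 genotypes compared.

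MET6, which encodes the methionine synthase, was higher in H3K121Q, at 2.09 ± 0.52 (adjusted p = 0.026), and lower in H3R40K, at -1.88 ± 0.63 (adjusted p = 0.0459). It averaged 82.9 ± 54.2 CPM in H3K121Q and 5.21 ± 2.18 CPM in H3R40K, against 19.8 ± 9.53 CPM in WT. The spread between the H3K121Q libraries was large beside their mean. Both calls were lost without any of 5 single libraries each, at 1.67 to 2.10 in H3K121Q without S79, S80, WT S133, WT S81 or WT S82, and at -2.12 to -1.53 in H3R40K without S136, S137, S138, WT S46 or WT S81. The H3R40K change was also not called with the set as a covariate, at -0.73, or without the filter on low counts, at -1.86.

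STR2, whose product makes cystathionine from cysteine, was lower in H3R40K at -1.03 ± 0.25 (adjusted p = 0.00475), in H3T3D at -0.98 ± 0.30 (adjusted p = 0.0311) and in H3S31D at -0.93 ± 0.27 (adjusted p = 0.0345). These are the mutants in which SAM1 lay below every WT library. The H3R40K call held without any single library, that of H3T3D was lost without S134, S135, WT S81 or WT S82, at -1.28 to -0.73, and that of H3S31D without S139, S140, S141, WT S46 or WT S81, at -0.96 to -0.89. With the set as a covariate none of the 3 was called, at -0.76 in H3R40K, -0.72 in H3T3D and -0.66 in H3S31D.

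MET10, a subunit gene of sulfite reductase, was lower in H3R40K at -0.72 ± 0.21 (adjusted p = 0.0204) and in H3K121R at -0.72 ± 0.22 (adjusted p = 0.0427). SPE3, the spermidine synthase gene that draws on decarboxylated S-adenosylmethionine, was lower in H3T3D at -1.15 ± 0.23 (adjusted p = 0.000753) and in H3T3A at -0.97 ± 0.22 (adjusted p = 0.0147). SPE3 averaged 143.4 ± 8.56 CPM in H3T3D and 162.3 ± 11.7 CPM in H3T3A. The MET10 calls were lost without WT S46 or WT S81, in H3R40K also without S136, S137 or S138 and in H3K121R also without S77 or S78, at -0.74 to -0.59, the one in H3R40K also with the set as a covariate, at -0.61, and the one in H3K121R also with DESeq2, at -0.72. The SPE3 calls were lost without S134 in H3T3D, at -1.09, and without S130 or S131 in H3T3A, at -1.05 and -0.90.

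MET17, the gene of the enzyme that fixes sulfide into homocysteine and a common deletion marker in laboratory strains, was present in every library, at 49.5 to 731 CPM. It was lower in H3R40K, at -1.48 ± 0.37 (adjusted p = 0.00607). That call was lost without H3R40K S138, at -1.19, and with the set as a covariate, at -1.10. Across genotypes MUP1 and MET17 had r of 0.75, with 0.81 in the first set, -0.47 in the second and 0.58 in the third.

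H3R40K had the most calls of the lists, with 2 higher and 6 lower of 44 genes, beside 4.57% of all genes called higher and 4.28% lower. H3S31D had 0 higher and 3 lower, beside 2.13% called higher and 3.14% lower, and H3T3D had 1 higher and 3 lower, beside 4.53% higher and 3.28% lower. These mutants lie wholly in the third set, and with the set as a covariate 5 of the 6 lower calls of H3R40K were lost, all but ADI1, as were all 3 of H3S31D and 2 of the 4 in H3T3D. The 2 higher calls of H3R40K stayed. Over all mutants 13 of the 25 calls stayed with the set as a covariate, 12 were lost and 10 others were gained. In fits to only the 2 genotypes compared 17 of the 25 were lost.

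The remaining calls, named after their values were seen and made by edgeR over all genes, fell on 1 mutant each. ADO1, the adenosine kinase gene, was higher in H3R40K, at 0.86 ± 0.19 (adjusted p = 0.0014), and held without any single library. MET30, a regulator gene of the sulfur pathway, was also higher there, at 0.78 ± 0.22 (adjusted p = 0.0174), a call lost without S136, S137 or WT S133. ADI1, a gene of methionine salvage, was lower in H3R40K, at -0.97 ± 0.27 (adjusted p = 0.0128), a call lost without S136, S138 or WT S133. MET14, the adenylylsulfate kinase gene, was lower there, at -1.85 ± 0.50 (adjusted p = 0.0122), a call lost without S138 and with the set as a covariate, at -1.30.

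SAH1, which encodes S-adenosylhomocysteine hydrolase, was lower in H3S31D, at -1.50 ± 0.45 (adjusted p = 0.0385), and so was SPE2, the S-adenosylmethionine decarboxylase gene, at -0.81 ± 0.23 (adjusted p = 0.0342). Both calls were lost with the set as a covariate, at -1.23 for SAH1 and -0.89 for SPE2, and without any 1 of the 3 H3S31D libraries, WT S46 or, for SAH1, WT S81 and, for SPE2, WT S133. MET16, the gene of the enzyme that reduces activated sulfate, was lower in H3T3D, at -1.18 ± 0.32 (adjusted p = 0.0144), a call lost without S134 or S135. MET1 was higher in H3K37Q, at 0.81 ± 0.22 (adjusted p = 0.0137), a call lost without S118, S119, WT S46 or WT S82 and with the set as a covariate, at 0.79. BAP2, an amino acid permease gene, was lower in H3K122Q, at -0.72 ± 0.19 (adjusted p = 0.0474), a call lost without any 1 of its 3 libraries, WT S133 or WT S46.

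**Figure D5:**
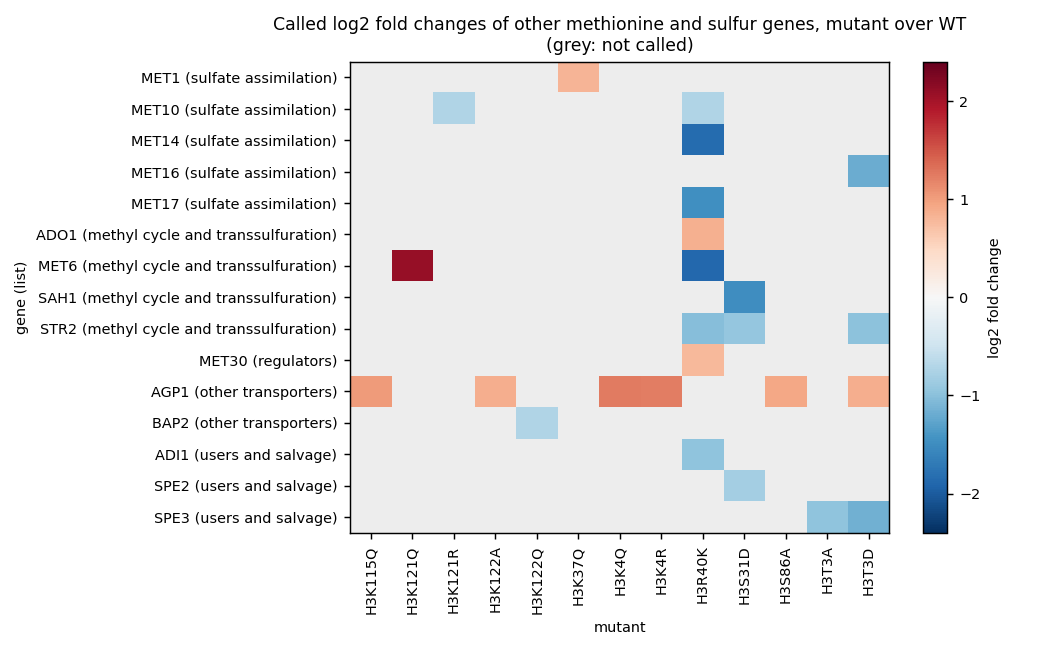
Heat map of the called log2 fold changes over WT of 15 other genes of methionine and sulfur metabolism (rows, with the list) in the 13 mutants with at least 1 such call (columns), red for higher and blue for lower in the mutant, grey where not called. AGP1 is red in 6 mutants, STR2 is blue in 3, and H3R40K holds 2 higher and 6 lower calls; with the set of sample numbers as a covariate none of the 3 STR2 calls and 1 of the 6 lower H3R40K calls stayed.

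The neighbours MHT1 and SAM4 were not called in any mutant. MHT1, next to MMP1, averaged 20.1 ± 7.17 CPM in H3S86A, 17.6 ± 13.4 CPM in H3K115Q and 13.9 ± 9.59 CPM in H3K122A, against 7.07 ± 2.73 CPM in WT; these are the 3 mutants with the highest MMP1 means. Over genotypes MMP1 and MHT1 had r of 0.69, with 0.86 in the first set, -0.15 in the second and 0.51 in the third. SAM4, next to SAM3, averaged 158.2 ± 12.9 CPM in H3S86A and 118.3 ± 3.44 CPM in H3K122A, against 139.4 ± 22.1 CPM in WT, and its r with SAM3 was -0.17.

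The authors' deposited table of log2 fold changes gave smaller values than the fit for the called changes. In the authors' deposited table MUP1 stood at 1.32 in H3K122A, 1.02 in H3S86A, 0.93 in H3K115Q and 0.82 in H3K122Q. For MUP3 the authors' deposited table gave 1.87 in H3S86A, 1.52 in H3K115Q and 1.72 in H3K121R, and for SAM2 in H3K121Q it gave 1.14. The direction was the same in all 8, and how the authors averaged libraries in their deposited table is not stated. Among values that were not called, some near 0 differed in sign. MUP3 in H3R40K was 0.11 in the authors' deposited table and -0.14 in the fit. MUP1 in H3K115R was -0.02 in the authors' deposited table and 0.08 in the fit. Counts of fold changes above or below 0 are those of the fit.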

How the data were processed

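The authors deposited raw counts per gene for 90 QuantSeq libraries, used unchanged, and a table of log2 fold changes over WT, which is quoted only where the authors' deposited table is named. The submitters' processing notes name TopHat, HTSeq, featureCounts 1.5.3 and sacCer3, without the role of each. The 5 summary lines of the count table stayed out of the totals, and 4 lines without content were dropped. Of 7122 genes, 6045 (84.9%) matched RefSeq, which gave symbols and positions. Columns were tied to genotypes by name. Libraries of a genotype differed beyond counting error in all 90 pairs checked, by at least 2.01 times in chi-square per degree of freedom.

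Counts were scaled by TMM, filtered with filterByExpr and fitted across all genes with edgeR 4.0.16 (R 4.3.3) by the quasi-likelihood test, with 1 coefficient per genotype and 60 residual degrees of freedom. The common dispersion was 0.0543, a spread of 23.3%. Tests were two-sided, with Benjamini-Hochberg adjustment over the genes of a comparison. For log2 levels the prior count was 2. Comparisons were each mutant over WT, 17 pairs of substitutions of a residue and the mean of the 29 mutants over WT. Simulated data in which 200 genes had known changes in H3K122A were used to test the procedure for H3K122A over WT. They held no differences between the sets of sample numbers, so they could not test the effect of the sets.

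The 6 genes and the lists were chosen with earlier results of these data known. Named besides the 6 were list genes called in at least 2 mutants (at most 8), MHT1, SAM4 and MET17, and the 3 most similar genes of each member. Alternatives were RLE scaling, no filter, the set as covariate, fits to 2 genotypes, the other mutants in place of WT, DESeq2 1.42.0 and each library left out. Fits within the first or the third set were added after seeing the data. Sequences are not used here, and the ATAC-seq samples were not analysed here.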

Additional observations from a re-analysis of the deposited data

Results flagged for a closer look

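H4Y88A and WT were the genotypes with 4 libraries, enough to ask whether 1 library stands apart from the rest by Dixon's test at the 95% level. Of the 12 groups so tested, 6 genes in both genotypes, 2 had such a library, and chance gives about 1 in 20. MUP1 in H4Y88A S47 stood at 86.6 CPM, below the other H4Y88A libraries at 182, 186 and 192 CPM. SAM1 in H4Y88A S48 stood at 172 CPM, above the other H4Y88A libraries at 83.5, 92.3 and 92.4 CPM. The 2 values come from different libraries, and neither gene was called in H4Y88A.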

How the results depend on the processing

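The 8 calls of the 6 genes over WT kept their direction under all alternatives tried on them, staying past the threshold in 80 cases and missing it in 32. A change of direction was unlikely from the start, since these values were picked by their calls in the same libraries. The count of calls was 9 with the RLE scaling of edgeR, of which 8 were higher and 1 lower, 8 with no filter on low counts, 9 with the set of sample numbers as a covariate and 11 with DESeq2, which gave no adjusted p for 4 of the values. It was 4 in fits to only the 2 genotypes compared and 16 where the 28 other mutants, on average, stood in for WT, of which 10 were higher and 6 lower. In fits added after the data were seen, the first set alone gave 16 calls, and the third set alone gave 5, against 0 in the same comparisons over all libraries. Without single libraries the count ranged from 4, without WT S133 or WT S82, to 11, without H3K121A S108 or H3S86A S112. The MUP1 calls in H3S86A, H3K115Q and H3K122Q, the MUP3 call in H3K115Q and the SAM2 call in H3K121Q were lost in the fits to 2 genotypes, and the MUP3 call in H3K115Q also against the other mutants. SAM1 in H3R40K, not called in the fit reported, was called lower with RLE scaling, at -1.18, and with DESeq2, at -1.18.

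The 25 calls of the pathway lists became 26 with RLE scaling, 24 without the filter, 23 with the set as covariate, of which 13 were among the 25, and 29 with DESeq2. They became 8 in fits to only the 2 genotypes compared and 67 against the mean of the 28 other mutants, and ranged from 15, without WT S81, to 31, without H3S86A S112. The 2 calls between substitutions of a residue became 1 without the filter, where SAM3 in H3K121A over H3K121R was lost at 0.97. They ranged from 0 to 2 without single libraries. In fits to only the 2 genotypes compared neither of these 2 was called, and the 1 call found there was another value, a lower one. The count of 0 for the mean of the 29 mutants over WT was 0 under each setting that could be run, and without each single library. In all of these, causes were not tested beyond the fewer or other samples that the settings use.

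No paired analysis was possible because the columns show no replicate number beside genotype and sample number, so libraries of different genotypes could not be matched. Depth limits SAM2 and MMP1 most, with at most 35 and 69 counts per library outside H3K4R S55.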

Other observations

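The 10 tested genes of sulfate assimilation gave a median log2 fold change over WT of 0.52 in H3S86A, 0.50 in H3K122A and 0.46 in H3K115Q, where the median over all tested genes was 0.00, -0.03 and -0.02. These are also the mutants with the highest MUP1 means, but none of the 10 genes was called in any of them. The lowest medians of the list were -0.49 in H3K4R, which includes the shallow library S55, and -0.49 in H3R40K, beside -0.02 and -0.04 over all genes. All of these comparisons share the WT libraries.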
